A study of Mus musculus with 46 samples.

Results

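Adrenergic receptors are the G-protein-coupled receptors of noradrenaline and adrenaline. The 6 adrenergic receptor genes described here, Adra1a, Adra1b, Adra1d, Adra2a, Adra2c and Adrb1, were taken by name from the 22800 genes in the count table by symbol. All 6 were found there. They were measured in 46 single neurons of the mouse, each labelled an oriens-lacunosum moleculare (OLM) interneuron, a somatostatin-expressing cell of the hippocampal stratum oriens whose axon contacts the distal dendrites of pyramidal cells. Of these, 23 cells came from an Sst Cre driver line and 23 from an Htr3a Cre driver line, in which Cre recombinase is driven by the somatostatin gene or by a serotonin receptor gene. Mice were 21 to 30 days old, cytosol was drawn into a patch pipette, and total RNA was sequenced. Per the series title the cells were identified by their anatomy, and each had passed quality control, per the labels. No animal is named, so each line counts as 1 sample, cells of a line share their source, and no test between the lines was made.

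Noradrenaline reaches the hippocampus in axons of the locus coeruleus. Alpha1 receptors couple to Gq and phospholipase C, alpha2 receptors to Gi and Go, which inhibit adenylyl cyclase and open inwardly rectifying potassium channels, and beta receptors to Gs, which stimulates adenylyl cyclase and so protein kinase A. A cell can carry several of them, and the receptors it carries decide which of these pathways noradrenaline engages.

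Libraries held 5639490 to 31386369 assigned reads in Sst-line cells and 3391829 to 26136222 in Htr3a-line cells. Genes with a read numbered 6569 at the median of Sst-line cells and 8169 at the median of Htr3a-line cells. Of 8 OLM markers, 8 were read in each line, and all 23 cells of each line held reads of the OLM gene Sst, which drives Cre in the Sst line. The OLM marker Crhbp was also read in 23 cells of each line, and Reln in 23 Sst-line and 22 Htr3a-line cells. The remaining OLM markers were missed in some cells. Among them, Chrna2 was found in 6 cells of the Sst line and 10 of the Htr3a line. Npy was found in 16 cells of the Sst line and 21 of the Htr3a line. The libraries of Htr3a-line replicates 4 and 20 had the fewest reads of Gad1, 4 and 24. Gad1 encodes a GABA-synthesising enzyme that marks interneurons. Summed GABAergic markers and Sst did not set these libraries apart in this way. Their 7 GABAergic markers summed to 562 and 447 counts per 1000000 reads (CPM), above the 293 and 297 CPM of Htr3a-line replicates 10 and 11. Sst was at 4545 CPM in replicate 4 and 64006 CPM in replicate 20. Neither held a read of any of the 6 receptor genes. Transcripts of microglia were read in both lines (9 of 9 markers in each), summing to 0.0536 to 10876 CPM in Sst-line cells and 0 to 8443 CPM in Htr3a-line cells. Astrocyte markers summed to 0.0596 to 445 CPM in Sst-line cells (7 of 8 read, with Aqp4 at 0) and 0.36 to 1383 CPM in Htr3a-line cells (8 of 8 read). Their highest sum was in Htr3a-line replicate 4. Oligodendrocyte markers (6 of 6 read in each line) summed to 0.473 to 5318 CPM in Sst-line cells and 0.144 to 13314 CPM in Htr3a-line cells, the highest being Htr3a-line replicate 4.

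At least 1 of the 6 receptor genes had a read in 69.6% of Sst-line cells (16 of 23, exact Clopper-Pearson 95% interval 47.1 to 86.8) and in 73.9% of those of the Htr3a line (17 of 23, 51.6 to 89.8). Any alpha receptor gene was read in 12 cells of each line. At a level of 10 CPM or more it was 10 cells of each line (43.5%, 23.2 to 65.5). The 4 alpha genes that were read were each missed in most cells of both lines. Intervals cover counting error only: no molecular identifiers are named, so reads may be repeats of the same molecule.

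**Figure D1:**
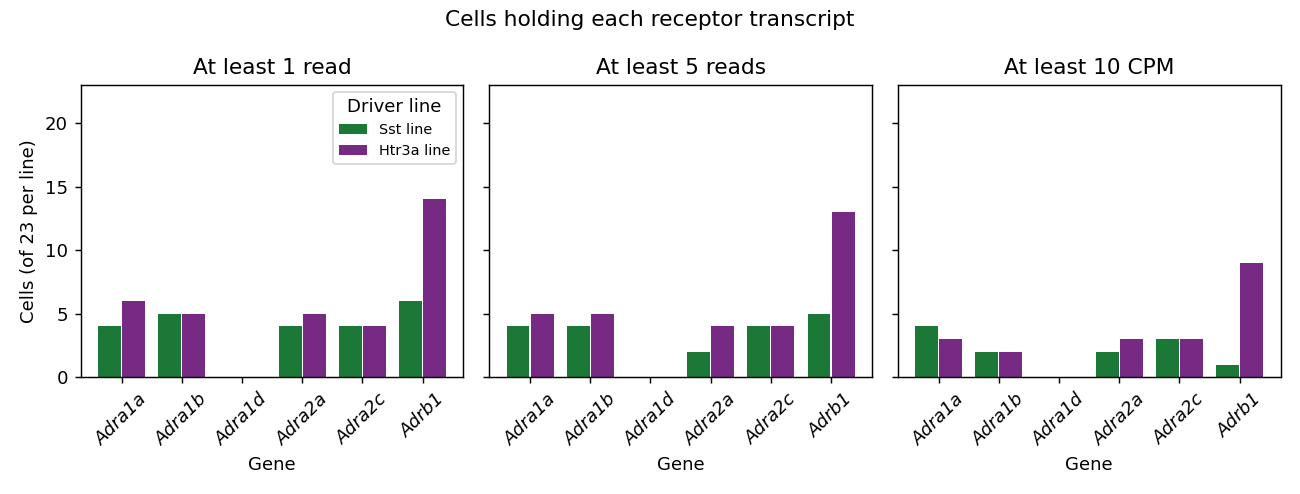
Cells of each line, of 23, that held each receptor transcript by at least 1 read, at least 5 reads or at least 10 CPM (y axis: number of cells; green bars: Sst line, purple bars: Htr3a line). Adrb1 was found in 6, 5 and 1 Sst-line cells and in 14, 13 and 9 Htr3a-line cells, while the alpha receptor genes differed by at most 2 cells between the lines.

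Adrb1, the beta1 receptor (chromosome 19, 56722199 to 56733113, plus strand, protein-coding, ENSMUSG00000035283; all positions are on GRCm38), was the most often read member and differed most between the lines. Its share of cells was 26.1% in the Sst line (6 of 23, 10.2 to 48.4) and 60.9% in the Htr3a line (14 of 23, 38.5 to 80.3), with overlapping intervals. The Sst-line cells with reads held 2.16 CPM (replicate 1), 6.37 (4), 10.2 (12), 3.52 (15), 0.0642 (20) and 0.284 (23), and the other 17 held none. Over all Htr3a-line cells the lowest value was 0, the median 0.612 and the highest 25.6 CPM (replicate 5). The lines overlap, but 9 Htr3a-line cells stood above the highest Sst-line cell. In cells with reads the median was 2.84 CPM in the Sst line and 13.5 CPM in the Htr3a line.

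Line differences are means of log2(CPM + 1) over the Sst line minus means over the Htr3a line, and those below 0 mark genes lower in the Sst line. For Adrb1 the means were 0.46 ± 1.03 (SD, 23 cells) in the Sst line and 1.90 ± 2.01 (SD, 23 cells) in the Htr3a line. The difference of -1.43 was larger than the Sst-line SD and smaller than the Htr3a-line SD. Leaving out each of the 46 cells in turn gave -1.57 to -1.30. Adrb1 took 1.37 CPM (exact Poisson 95% interval 1.25 to 1.49) of the reads summed over the Sst line and 7.73 CPM (7.43 to 8.02) of those summed over the Htr3a line. Replicate 12 held 63.3% of the Sst-line reads, and without it the sum was 0.548 CPM. The summed ratio of Sst line to Htr3a line was -1.88 on the log2 scale, and between -2.50 and -1.75 with each cell left out.

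Genes lower in the Sst line were common, so the Adrb1 difference has to be read against the rest. Of the 5 members above a mean log2(CPM + 1) of 0.5 over all 46 cells, 1 was lower by 1 or more in the Sst line and 0 were higher by 1 or more. Of the 11196 genes above that level, 14.9% were lower by 1 or more and 4.24% higher by 1 or more, and the median difference was -0.22. With 1 called of 5, the share of members was near this background. Adrb1 was also the 1 member read in at least 5 fewer Sst-line cells, as were 16.6% of all genes tested, and 0 members were read in at least 5 more Sst-line cells, against 0.884% of genes. A difference as low as that of Adrb1 or lower was found in 5.58% of genes, and a gap of 8 cells or more with reads in 2.91%.

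Reads of Adrb1 went with the number of genes read in a cell. Over all 46 cells Spearman's rho was 0.47 and Pearson's r on log scales 0.37, and without the 2 cells farthest from the median number of genes they were 0.44 and 0.35. Within the Sst line rho was 0.15 and within the Htr3a line 0.42 (23 cells each). The points share the library and its depth, and these values are a description with no test. Among cells with 6000 to 9000 genes read, a range both lines hold, Adrb1 was read in 5 of 14 Sst-line cells and 11 of 15 Htr3a-line cells, and the line difference was -2.09. Leaving out Htr3a-line replicates 4 and 20, the Htr3a-line count was 14 of 21 cells and the line difference -1.61. After thinning every cell to 3000000 reads it was read in 5 of 23 Sst-line cells and 12 of 23 Htr3a-line cells.

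**Figure D2:**
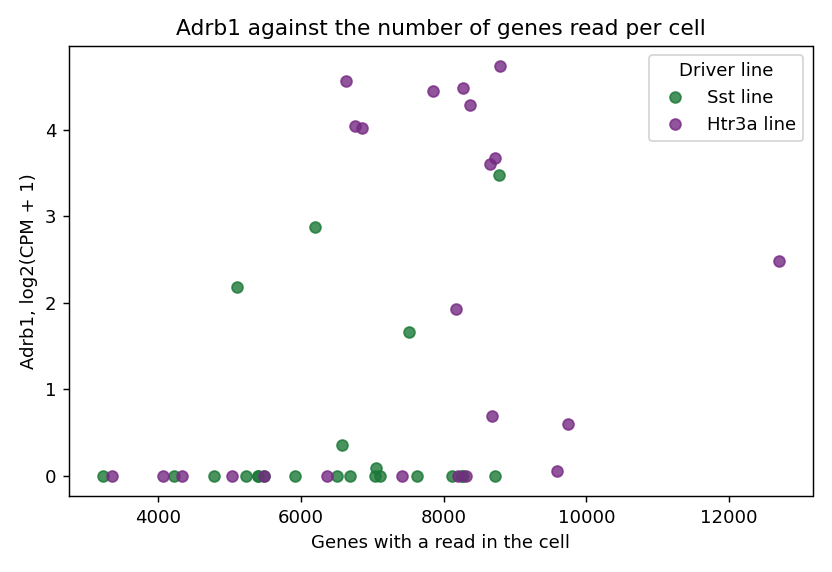
Adrb1 level in each cell, as log2(CPM + 1) on the y axis, against the number of genes with a read in that cell on the x axis (green: Sst line, purple: Htr3a line, 1 point per cell). Of the cells between 6000 and 9000 genes, 5 of 14 Sst-line and 11 of 15 Htr3a-line cells held an Adrb1 read.

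At the median, microglial transcripts were lower in Sst-line cells with Adrb1 reads than in those without. In the Htr3a line the median was higher in cells with Adrb1 reads, and in both lines the ranges overlapped widely. In the Sst line microglial markers summed to a median of 314 CPM (26.6 to 1835) in the 6 cells with Adrb1 reads and 857 CPM (0.0536 to 10876) in the other 17. In the Htr3a line the median was 1151 CPM (11.3 to 8443) in the 14 cells with reads and 142 CPM (0 to 3779) in the other 9. Leaving out cells whose microglial markers reached 1000 CPM, Adrb1 was read in 4 of 13 Sst-line cells and 7 of 15 Htr3a-line cells, and the line difference was -1.02. Astrocyte markers had medians of 42.2 CPM in Sst-line cells with Adrb1 reads and 70.0 CPM in those without, and of 100.4 CPM in Htr3a-line cells with Adrb1 reads and 51.0 CPM in those without. Oligodendrocyte markers had medians of 146.7 CPM in Sst-line cells with Adrb1 reads and 282 CPM in those without, and of 148 CPM in Htr3a-line cells with Adrb1 reads and 104.8 CPM in those without. The part of these transcripts in the Adrb1 result was not tested.

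The alpha1 receptor genes were each read in 10 of 46 cells, or, for Adra1d, in none. Adra1a, the alpha1A receptor (chromosome 14, 66635251 to 66771168, plus strand, protein-coding, ENSMUSG00000045875), was found in 17.4% of Sst-line cells (4 of 23, 4.95 to 38.8) and in 26.1% in the Htr3a line (6 of 23, 10.2 to 48.4). The Sst-line cells held 35.6 CPM (replicate 2), 40.1 (6), 61.9 (13) and 358 (21). The Htr3a-line cells held 64.0 CPM (replicate 3), 0.0656 (7, a single read), 18.8 (13), 2.25 (15), 49.9 (16) and 7.85 (22). All 4 Sst-line cells lay above 4 of the 6 Htr3a-line cells, and most cells of both lines held no read. The line difference of 0.18 was far smaller than the SDs of 2.49 in Sst-line and 1.92 in Htr3a-line cells, and it was of either sign when single cells were left out (-0.16 to 0.41). Summed over a line, Adra1a took 20.8 CPM in the Sst line and 6.42 CPM in the Htr3a line. Sst-line replicate 21 alone held 78.1% of the Sst-line reads, and without it the Sst line had 4.78 CPM. The Htr3a line had 4.07 CPM without replicate 3 and 4.22 CPM without replicate 16.

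Adra1b, the alpha1B receptor (chromosome 11, 43774606 to 43901210, minus strand, protein-coding, ENSMUSG00000050541), was read in 5 cells of each line (21.7%, 7.46 to 43.7). The Sst-line cells held 42.2 CPM (replicate 7), 2.44 (11), 5.99 (12), 71.0 (19) and 0.12 (21), and the Htr3a-line cells 18.5 CPM (replicate 9), 1.34 (10), 16.3 (15), 0.423 (16) and 1.02 (17). The ranges overlap. Means of 0.71 ± 1.75 in the Sst line, against 0.49 ± 1.22 in the Htr3a line (SD, 23 cells each) gave a difference of 0.23. The summed CPM was 6.96 in the Sst line, or 2.65 without replicate 19, and 1.94 in the Htr3a line, or 0.957 without replicate 9.

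Adra1d, the alpha1D receptor (chromosome 2, 131545850 to 131562283, minus strand, protein-coding, ENSMUSG00000027335), had no read in any cell. By a floor of 3 counts, 0 of 46 cells allows a share of cells with a read of up to 6.52% and 0 of 23 in each line up to 13.04%, and the exact Clopper-Pearson 95% intervals reach 7.71% and 14.8%. The antisense gene Gm14285 overlaps it. None of the other 5 members overlaps an annotated gene, and at most 2.03% of their 31-base words occur in transcripts of other genes.

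**Figure D3:**
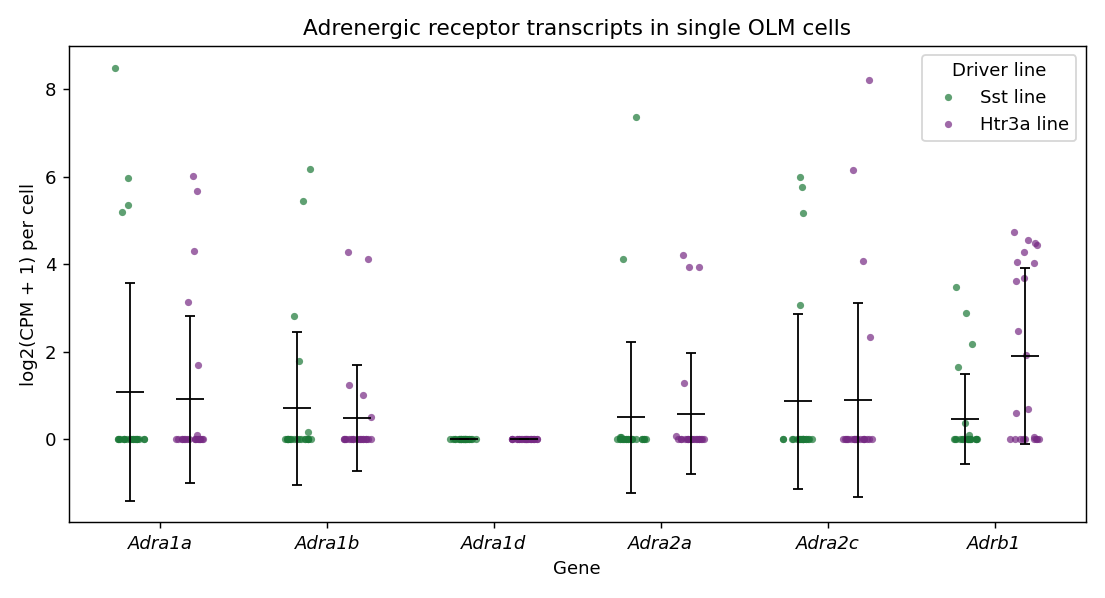
Level of each receptor gene in every cell, as log2(CPM + 1) on the y axis (green: Sst line, purple: Htr3a line, 1 point per cell, 23 cells per line). Black lines are means with SDs over cells; most points lie at 0, and single cells reach 358 CPM for Adra1a, 162 CPM for Adra2a and 292 CPM for Adra2c.

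The alpha2 receptor genes were read in equal or nearly equal numbers of cells. Adra2a, the alpha2A receptor (chromosome 19, 54044151 to 54048982, plus strand, protein-coding, ENSMUSG00000033717), was read in 4 Sst-line cells (17.4%, 4.95 to 38.8) and 5 Htr3a-line cells (21.7%, 7.46 to 43.7). The Sst-line cells held 0.0354 CPM (replicate 1, a single read), 0.0441 (9, a single read), 16.5 (12) and 162 (17). The Htr3a-line cells held 14.2 CPM (replicate 3), 0.0601 (6, a single read), 17.5 (10), 1.42 (13) and 14.3 (22). A level of 10 CPM was reached by 2 cells of the Sst line and 3 of the Htr3a line. The line difference was -0.08. Sst-line replicate 17, the cell with the fewest genes read of all (3225), held 85.4% of the Sst-line reads, and the summed CPM of that line was 9.61 with it and 1.48 without it, against 2.0 in the Htr3a line, or 1.11 without its replicate 10.

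Adra2c, the alpha2C receptor (chromosome 5, 35278319 to 35281763, plus strand, protein-coding, ENSMUSG00000045318), was read in 4 cells of each line. The Sst-line cells held 62.4 CPM (replicate 1), 34.7 (6), 7.39 (12) and 53.2 (22), and the Htr3a-line cells 69.8 CPM (replicate 2), 292 (6), 4.03 (10) and 15.7 (14). All Sst-line values lie within the range of the Htr3a-line values, and the line difference was -0.03. Htr3a-line replicate 6, with 3350 genes read, held 77.0% of the Htr3a-line reads. The summed CPM was 7.82 in the Sst line, or 3.29 without replicate 1, and 18.4 in the Htr3a line, or 4.44 without replicate 6.

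By summed CPM 3 members were higher by 1 or more on the log2 scale in the Sst line (Adra1a 1.56, Adra1b 1.44 and Adra2a 1.82) and 2 lower (Adra2c -1.13 and Adrb1 -1.88). Each alpha value rested on single cells: Adra1a was at -0.36 without Sst-line replicate 21, Adra1b at 0.31 without Sst-line replicate 19, Adra2a at -0.27 without Sst-line replicate 17 and Adra2c at 0.70 without Htr3a-line replicate 6. The 3 highest levels of any member in a cell, 358, 292 and 162 CPM, were in libraries with 5231, 3350 and 3225 genes read.

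Levels can be set side by side between genes only per length of exon. In cells with reads, over both lines, the median was highest for Adra2c at 12.7 CPM per kilobase of annotated exon (range 1.17 to 84.9). Adra1a followed at 4.34 (0.00752 to 41.0), Adra2a at 2.94 (0.00732 to 33.6), Adrb1 at 2.44 (0.0113 to 7.57) and Adra1b at 1.25 (0.0354 to 20.99). The ranges of all neighbours in this order overlap, and below Adra2c the order was held by neither line. In Sst-line cells with reads the medians were 12.7 for Adra2c, 5.84 for Adra1a, 1.77 for Adra1b, 1.71 for Adra2a and 0.84 for Adrb1. In Htr3a-line cells with reads they were 12.4 for Adra2c, 3.99 for Adrb1, 2.94 for Adra2a, 1.52 for Adra1a and 0.397 for Adra1b. Adra2c was read in the fewest cells of these 5 (8 of 46) and had the highest median in both lines.

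Most Sst-line cells with a receptor read held reads of 1 member, and more Htr3a-line cells held several. Of the Sst-line cells, 7 held none of the 6, 12 held 1, 2 held 2, 1 held 3 and 1 held 4. Of the Htr3a-line cells, 6 held none, 6 held 1, 6 held 2, 4 held 3 and 1 held 4. Reads of 2 or more members were thus present in 4 of 23 Sst-line cells (17.4%, 4.95 to 38.8) and in 11 cells, or 47.8%, of the Htr3a line (26.8 to 69.4), and the intervals overlap. At 10 CPM or more it was 2 cells of the Sst line and 4 of the Htr3a line. The mean number of members read per cell was 1 ± 1 in the Sst line, against 1.48 ± 1.20 in the Htr3a line (SD, 23 cells each), a gap smaller than the SDs. Among cells with 6000 to 9000 genes read, 3 of 14 Sst-line and 8 of 15 Htr3a-line cells held 2 or more. The gap was smaller without cells whose microglial markers reached 1000 CPM: 4 of 13 Sst-line cells (30.8%) and 6 of 15 in the Htr3a line (40.0%) held 2 or more, and the mean number per cell was 1.38 in the Sst line, against 1.33 in the Htr3a line. At least 1 member was then read in 11 of 13 cells of the Sst line (84.6%) and 9 of 15 of the Htr3a line. Without Htr3a-line replicates 4 and 20, at least 1 member was read in 17 of 21 Htr3a-line cells, and 2 or more in 11 of 21.

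**Figure D4:**
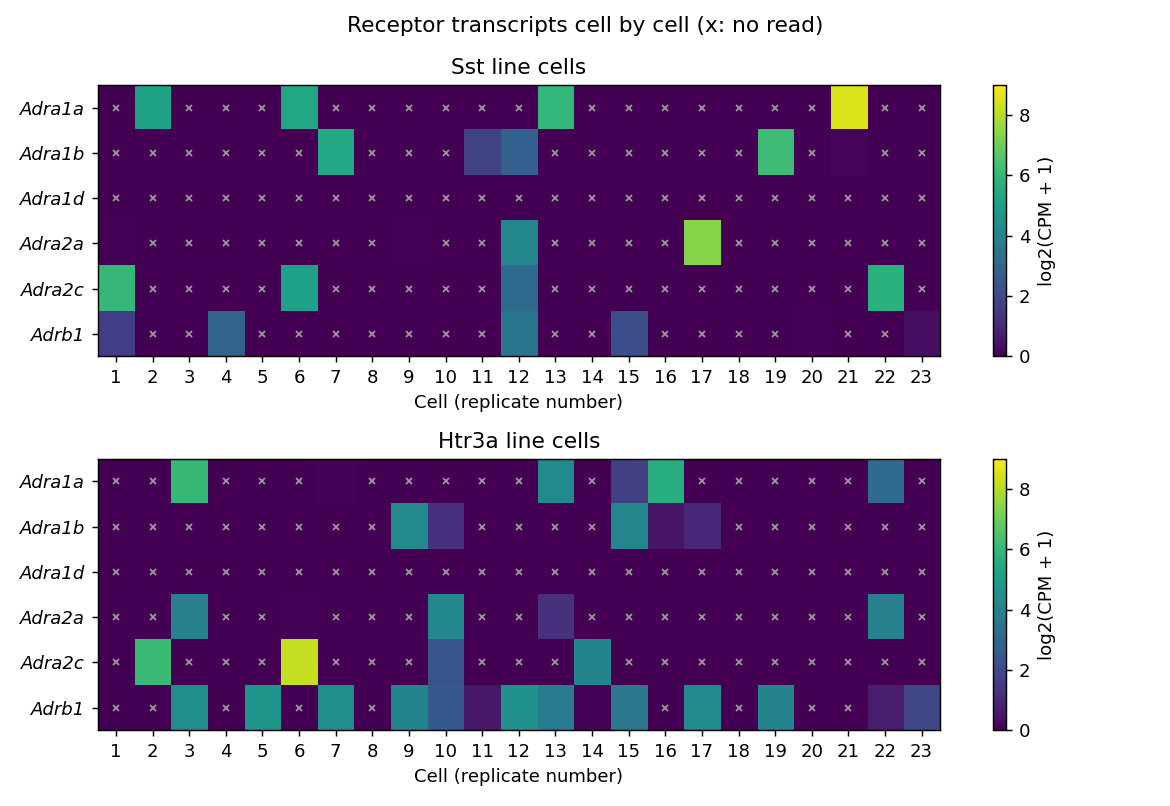
Log2(CPM + 1) of the 6 receptor genes (rows) in each cell (columns, by replicate number) of the Sst line above and the Htr3a line below. Crosses mark cells with no read and dark cells without a cross hold a trace; Sst-line replicate 12 and Htr3a-line replicate 10 each held 4 of the 6.

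The number of members read followed the number of genes read in a cell, with a Spearman's rho of 0.53 and a Pearson's r of 0.49 over 46 cells, which were 0.61 and 0.62 without the 2 cells farthest from the median number of genes. The Spearman value was 0.29 within the Sst line and 0.60 within the Htr3a line (23 cells each). The cells with 4 members, Sst-line replicate 12 and Htr3a-line replicate 10, had the most genes read in their lines, 8774 and 12693. The part of this in which receptors were read together was not tested.

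In the Htr3a line, where 14 of 23 cells held Adrb1, most cells with Adra1a, Adra1b or Adra2a also held it. Adra1a was read together with Adrb1 in 0 of 4 Sst-line cells with Adra1a and in 5 of 6 Htr3a-line cells with Adra1a (83.3%), while 9 of the other 17 Htr3a-line cells held Adrb1 (52.9%). Adra1b was read with Adrb1 in 1 of 5 Sst-line and 4 of 5 Htr3a-line cells with Adra1b, and Adra2a with Adrb1 in 2 of 4 Sst-line and 4 of 5 Htr3a-line cells with Adra2a. Of the 18 Htr3a-line cells without Adra1b, 10 held Adrb1 (55.6%), and it was also 10 of the 18 without Adra2a. The Htr3a-line cells with both genes had medians of 8646 (Adra1a), 8507.5 (Adra1b) and 8693 (Adra2a) genes read, beside 8169 in all cells of that line. For Adra2c and Adrb1 it was 2 of the 4 cells with Adra2c in each line. Seen from Adrb1, 5 of its 14 Htr3a-line cells held Adra1a (35.7%), 4 held Adra1b and 4 held Adra2a. Whether these shares differ between the lines was not tested. At 10 CPM or more, Adra1a and Adrb1 were together in 2 Htr3a-line cells, replicates 3 and 13. At that level Adra1b and Adrb1 were together in 2 Htr3a-line cells. Adra2a and Adrb1 were together in 1 Sst-line cell (replicate 12) and 1 Htr3a-line cell (replicate 3), and Adra2c and Adrb1 in 0 cells of either line.

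Both alpha2 genes, the receptors coupled to Gi and Go, were read together in 4 cells, which were 4 of the 9 with Adra2a (44.4%) and 4 of the 8 with Adra2c (50.0%). Of the 37 cells without Adra2a, 4 held Adra2c (10.8%). In Sst-line replicate 1 and Htr3a-line replicate 6 the Adra2a part was a single read beside 62.4 and 292 CPM of Adra2c. Sst-line replicate 12 held 16.5 CPM of Adra2a and 7.39 of Adra2c, and Htr3a-line replicate 10 held 17.5 and 4.03 CPM. No cell held both at 10 CPM or more. Likewise Adra1a and Adra1b, both coupled to Gq, were read together in 1 Sst-line cell and 2 Htr3a-line cells, and in 0 cells at 10 CPM or more.

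Other adrenergic receptor genes were sparser. Adrb3, the beta3 receptor, was read in 2 Sst-line cells at 40.5 and 155 CPM and in 2 Htr3a-line cells at 46.8 and 0.622 CPM. Of its 31-base words, 21.96% occur in transcripts of other genes, and the antisense gene Gm45470 overlaps it. Adra2b, the alpha2B receptor, had no read in 46 cells. At least 1 muscarinic receptor gene had reads in 15 cells of the Sst line and 17 of the Htr3a line, led by Chrm3 (11 Sst-line and 17 Htr3a-line cells). At least 1 of 12 metabotropic serotonin receptor genes had reads in 14 cells of the Sst line and 18 of the Htr3a line, led by Htr2a (11 Sst-line and 10 Htr3a-line cells). Dopamine receptor genes had reads in 11 cells of the Sst line and 16 of the Htr3a line, led by Drd2 (10 Sst-line and 15 Htr3a-line cells). By cells with a read, the leading muscarinic, dopamine and adrenergic genes were each found in fewer Sst-line than Htr3a-line cells, whereas Htr2a was not. Of all genes tested, 16.6% were read in at least 5 fewer Sst-line cells. Chrm3 was also lower in the Sst line by line difference (-0.96) and by summed CPM (-0.67). Drd2 was not clearly so: its line difference was -0.02 and its summed ratio 1.07, and it reached 10 CPM in 3 Sst-line and 2 Htr3a-line cells.

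The signalling genes that these receptors act through ranged from Itpr3, an inositol trisphosphate receptor with no read in any cell, to Gnas, read in all 46 cells. Of 51 genes in the lists of Gq, Gi and Go, Gs and desensitisation genes, 40 passed the expression minimum. Of these, 5 were lower by 1 or more in the Sst line and 0 higher, beside 14.9% lower and 4.24% higher of all genes tested. Values in parentheses after a gene's cells are its line difference. Their median difference was -0.31, beside the -0.22 of all genes, and by summed CPM it was of the other sign, at 0.067 beside 0.017. By summed CPM, Prkar2b alone of the 5 was lower by 1 or more.

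In the alpha1 arm, 2 of 11 genes were lower by 1 or more in the Sst line and the median was -0.11, or 0.41 by summed CPM and 0.0081 with a pseudocount of 10. Plcb4, a phospholipase C, had reads in 12 cells of the Sst line and 17 of the Htr3a line (-1.28, but -0.27 by summed CPM), and Prkce, the epsilon isoform of protein kinase C, in 18 Sst-line and 23 Htr3a-line cells (-1.02). Gna11, a G-protein subunit of the Gq class, was read in 20 cells of each line (0.54).

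In the alpha2 arm, 1 of 7 genes was lower by 1 or more and the median was -0.72, or -0.14 by summed CPM. Gnaz, a subunit of the Gi class, had reads in 16 cells of the Sst line and 20 of the Htr3a line (3.66 ± 3.06 against 5.004 ± 2.67, SD, 23 cells each, difference -1.34, but -0.88 by summed CPM). Gnai3 had reads in 10 Sst-line cells and 15 Htr3a-line cells (-0.92, but 0.10 by summed CPM), and Kcnj9, a subunit of the potassium channels that Gi and Go open, in 11 Sst-line and 14 Htr3a-line cells (-0.81, but 0.14 by summed CPM).

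In the beta arm, 2 of 17 genes were lower by 1 or more and the median was -0.29, or 0.05 by summed CPM. Gnas, the Gs subunit, was read in 23 cells of each line, with means of 10.91 ± 0.55 (SD, 23 cells) in the Sst line, against 10.40 ± 2.12 in the Htr3a line, a line difference of 0.51. Adcy3, an adenylyl cyclase, had reads in 15 cells of the Sst line and 20 of the Htr3a line (-1.32, but -0.37 by summed CPM), Adcy6 in 9 Sst-line and 8 Htr3a-line cells (0.70, but 1.84 by summed CPM) and Adcy1 in 19 Sst-line and 20 Htr3a-line cells (-0.62, but -0.01 by summed CPM). Prkar2b, a regulatory subunit of protein kinase A, had reads in 3 Sst-line cells and 6 Htr3a-line cells (-1.04, but -2.88 by summed CPM).

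Of 5 receptor kinase and arrestin genes above the minimum, which switch off active receptors, 0 were past 1 in either direction and the median was 0.71. Arrb2, an arrestin, had reads in 17 cells of the Sst line and 13 of the Htr3a line (0.98) and Adrbk1, a receptor kinase, in 18 Sst-line and 16 Htr3a-line cells (0.81). Grk6 had reads in 16 Sst-line cells and 19 Htr3a-line cells (-0.96, but 0.50 by summed CPM).

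**Figure D5:**
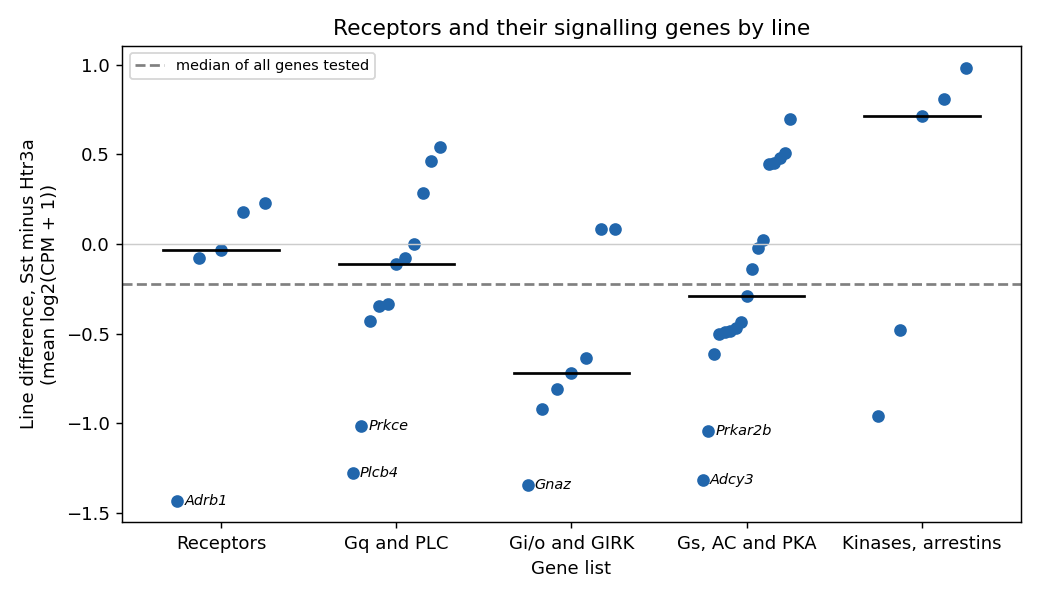
Line difference (mean log2(CPM + 1), Sst line minus Htr3a line, y axis) of each gene above the expression minimum in the receptor list and the 4 signalling lists (x axis; Gq and phospholipase C (PLC), Gi/o and inwardly rectifying potassium (GIRK) channels, Gs with adenylyl cyclase (AC) and protein kinase A (PKA), and receptor kinases with arrestins). Black lines are list medians, the dashed line is the median of all genes tested (-0.22), and the 6 genes lower by 1 or more are named.

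Genes of noradrenaline synthesis were at or near 0: Dbh, which makes noradrenaline, had no read in 46 cells, and Th had reads in 0 cells of the Sst line and 2 of the Htr3a line. Maoa, a breakdown enzyme of noradrenaline, had reads in 7 cells of the Sst line and 9 of the Htr3a line (-0.36). Slc18a2, the vesicular monoamine transporter, had reads in 5 Sst-line cells and 11 Htr3a-line cells (-0.66).

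Of the 9086 genes ranked, each read in 12 cells or more, those whose levels over the 46 cells were most like Adrb1 by Spearman's rho were Dnhd1 (0.64), Dennd1b (0.62) and Acvr1b (0.62). Within the Sst line these were 0.57, 0.32 and 0.31, and within the Htr3a line 0.52, 0.79 and 0.65 (23 cells each). For Adra1a they were Zfp719 (0.60), Zfp420 (0.56) and Pepd (0.55), and for Adra1b Dbr1 (0.60), Pxmp4 (0.59) and Specc1l (0.57). These are the highest of many values in sparse counts from shared libraries and are given as a description.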

How the data were processed

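Each deposited table holds 1 column per cell, and the header named the labelled driver line for 46 of 46 cells. Raw counts of reads per gene were deposited, per the file headers, by symbol (22800 genes, used here) and by Ensembl identifier (22880). Per the submitters' processing notes, Trimmomatic, STAR, featureCounts and the GRCm38 build were used. Their versions, the annotation and whether counting used strand were not given in the sources used here. The deposited normalized table is a signal: within 0.1%, 100% of its non-zero values equal the count divided by 1 factor per cell (0.144 to 2.09), whose origin is not given. Counts were scaled to 1000000 per cell (CPM) and taken as log2(CPM + 1), with Python 3.11.15, NumPy 2.4.6 and SciPy 1.17.1. Of 1035 pairs of libraries, 0 were identical. Titles number cells but give no replicates, so replicates were numbered in accession order.

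The members and gene lists were chosen with earlier results of these data known, and the rule of a 5-cell gap after the values were seen. Named genes are all adrenergic receptor genes, up to 3 per signalling list with the largest size of difference and reads in at least 12 cells, the 3 genes most alike to each member read in at least 10 cells, and the leading gene of other aminergic receptor families; Gnas, Itpr3, Dbh, Th and Prkar2b were added after their values were seen. Some genes that the rule names are not reported here. Annotation, exon lengths and shared 31-base words are from GENCODE M21 (GRCm38). The line-difference calculation was also run on simulated counts, and its outcome is not reported here. Alternatives were a pseudocount of 10, TMMwsp scaling (edgeR 4.0.16), poscounts scaling (DESeq2 1.42.0), the normalized values as deposited, summed CPM, the Ensembl table, thinning, detection minimums of 5 reads or 10 CPM, and leaving out cells.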

Additional observations from a re-analysis of the deposited data

How the results depend on the processing

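No paired analysis was possible because replicate numbers follow accession order and name no animal. The Adrb1 difference was negative under every alternative run, from -2.72 on the deposited normalized scale to -0.51 with a pseudocount of 10, so that 0 members were then lower by 1 or more. By summed CPM 2 members were lower and 3 higher by 1 or more, and Adra2a was at 1.82. At 10 CPM the share of Sst-line cells with Adrb1 was 4.35%. The cause of these shifts was not tested. The differences of Adra1a, Adra1b, Adra2a and Adra2c took either sign over the alternatives, from -0.21 to 1.56, -0.05 to 1.44, -0.46 to 1.82 and -1.13 to 0.61. The median of all genes lay between -0.45 and 0.02 under the other scales and scalings. Alternatives that left out sets of cells (replicates 4 and 20 of the Htr3a line, under 5000 genes, outside 6000 to 9000 genes, microglial markers at 1000 CPM or more) were chosen after seeing the data; Adrb1 then lay between -2.09 and -1.02. With 23 cells per line, the exact interval of a share of 0 reaches 14.8%.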
